A study of Mus musculus with 6 samples.

Results

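Described here are 33 genes of glycolysis and of lactate and pyruvate metabolism, chosen by symbol: glucose and monocarboxylate transporters, the enzymes from hexokinase to lactate dehydrogenase, the enzymes that set fructose-2,6-bisphosphate, and the first enzyme of the pyruvate dehydrogenase complex with its kinases. All 33 were among the 24002 gene symbols of the deposited RNA-seq table, and the rule uses gene symbols, not measured values, although it was written with earlier results of these data known. The cells came from R1, a line of mouse embryonic stem cells grown in 15% serum replacement with LIF, a cytokine that maintains self-renewal. Hanging drops were used for 48 h to make embryoid bodies, which then received retinoic acid, a morphogen of the embryonic hindbrain and spinal cord, and were sampled at day 6. A dose of 0.5 mM is labelled, far above the micromolar doses usual in such protocols, and its unit is in doubt. RNA-seq of polyadenylated RNA covers 3 samples, called replicates 1, 2 and 3, and 3 further samples of the same condition went to ATAC-seq, a map of open chromatin not used here. All samples carry the same line, treatment and day, so the values are levels at day 6, with no untreated or earlier cells to set them against.

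Glycolysis splits glucose into pyruvate in the cytosol and yields ATP without oxygen. Pyruvate is then either reduced to lactate, a reaction that regenerates the NAD+ consumed by glycolysis, with lactate leaving the cell through monocarboxylate transporters, or enters mitochondria, where the pyruvate dehydrogenase complex turns it into acetyl-CoA. Most steps have several paralogous genes with their own tissue preferences, and mouse embryonic stem cells and neural progenitors are known for high glycolytic flux, which neurons reduce as they mature in favour of oxidative metabolism.

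Levels are FPKM, fragment numbers scaled by transcript length and by the mapped fragments of a library, so they can be set side by side between genes. Summed FPKM lay between 477760 and 524717 per replicate. Absolute read numbers are not known. Judged from the spacing of low values, replicate 1 was 1.56 times as deep as replicate 2 and 1.17 times as deep as replicate 3. Whether each replicate was its own culture is not labelled, and the replicate spread may be technical. The cells are labelled embryonic stem cells. Of 10 pluripotency markers 5 reached 1 FPKM in each replicate (50.0%, near the 50.7% of all genes), while all 15 neuron markers and all 12 neural progenitor markers did. The defining pluripotency genes Pou5f1 and Nanog, named after their values were seen, averaged 0.815 and 0.0879 FPKM.

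Nearly the whole pathway was expressed, much of it at high levels. Of the 33 genes, 31 (93.9%) reached 1 FPKM in each replicate, the threshold for calling a gene expressed, against 50.7% of all genes in the table, and 9 averaged 100 FPKM or more, a level reached by 2.19% of all genes. Their median was 42.0 FPKM, against 1.31 FPKM for all genes and 14.1 FPKM for 104 genes of neighbouring pathways and regulators. Of those 104 genes, 81 (77.9%) were expressed. The same 50.7% of all genes applies to the counts of expressed genes in single lists below. The 104 genes include 16 tissue-restricted paralogues with a median of 0.263 FPKM. The 17 genes of the tricarboxylic acid cycle, also among them, had a median of 36.7 FPKM, near that of the 33 genes. The 9 highest were Pkm, Aldoa, Gapdh, Ldha, Pgam1, Pgk1, Tpi1, Eno1 and Gpi1, which between them cover each step from aldolase to lactate dehydrogenase and the hexose phosphate isomerase step before it. Below 1 FPKM were Pklr, the liver and red cell pyruvate kinase gene, and Pdk4, the kinase gene known for its induction by fasting. Together the 33 genes held 0.853%, 0.844% and 0.771% of the summed FPKM in replicates 1, 2 and 3. Without 1252 small RNA genes, some of them listed at very large FPKM, the shares were 1.32%, 1.26% and 1.26%.

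**Figure D1:**
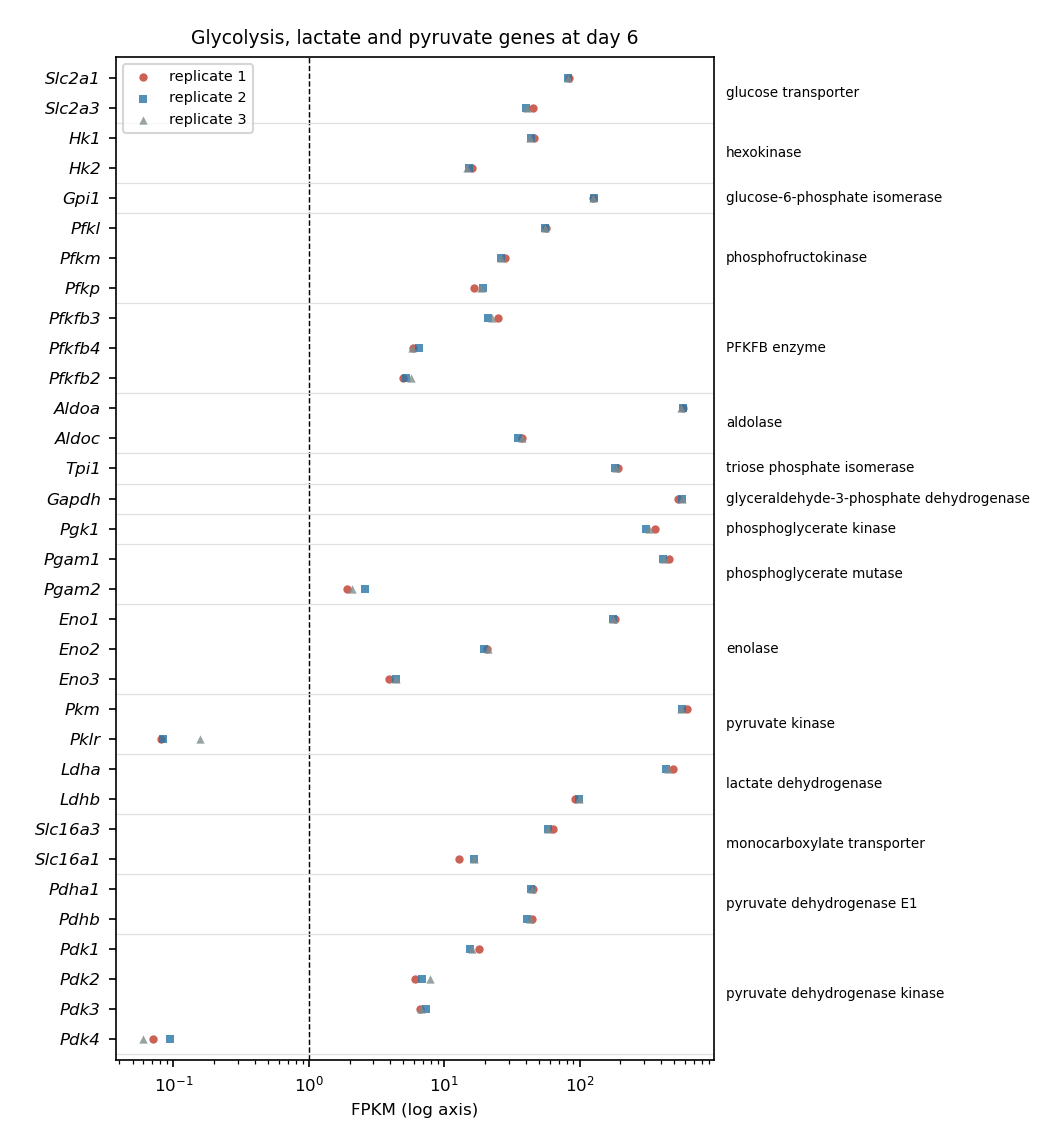
FPKM of the 33 genes on a log axis, in pathway order from glucose uptake at the top to the pyruvate dehydrogenase kinases at the bottom, with a symbol for each replicate and a dashed line at 1 FPKM. The 9 genes averaging 100 FPKM or more lie at the right, and Pklr (mean 0.107 FPKM) and Pdk4 (mean 0.0751 FPKM) lie left of the line.

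In order of mean level, Pkm (581 ± 31.6 FPKM; SD, n = 3), Aldoa (576 ± 10.1) and Gapdh (559.6 ± 21.4) came first. The values of Pkm and Aldoa overlapped, as did those of Aldoa and Gapdh, so their order is within the spread between replicates. Ldha and Pgam1 overlapped as well, while Pgk1, Tpi1, Eno1 and Gpi1 each stood clear of the next gene. Over the full order, 11 of 32 neighbouring pairs overlapped. Among all genes of the table, Pkm ranked 65, Aldoa 68, Gapdh 72, Ldha 85 and Pgam1 99.

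Both glucose transporter genes among the 33 were expressed. Slc2a3 encodes GLUT3, the high-affinity transporter known from neurons and early embryos, and had 44.8, 39.9 and 41.1 FPKM in replicates 1, 2 and 3. Slc2a1 encodes GLUT1, the widespread basal transporter, and had 83.0, 82.4 and 82.0 FPKM. The values did not overlap: the level of Slc2a3 was 0.509 ± 0.0287 times that of Slc2a1 (SD, n = 3). Slc2a1 had the smallest coefficient of variation of the 33 genes, 0.641%. The insulin-responsive transporter gene Slc2a4 stood at 1.46 ± 0.205 FPKM and the liver and islet transporter gene Slc2a2 at 0.0457 ± 0.0189.

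Hexokinase traps glucose as glucose-6-phosphate. Hk2, the inducible isoform, had 15.95, 15.3 and 14.8 FPKM, against 45.9, 43.6 and 42.9 FPKM of Hk1, the form that dominates in brain. Of the 17 pairs of related genes compared, this one had the smallest SD between replicates: the difference of Hk2 from Hk1 was -1.47 ± 0.01 (SD, n = 3) on the log2(FPKM + 1) scale, on which a pseudocount of 1 understates differences of low genes. Hkdc1, a hexokinase domain gene outside the 33, had 3.14, 4.65 and 5.24 FPKM. The next enzyme, glucose-6-phosphate isomerase, has a single gene, Gpi1, with 126, 129 and 126 FPKM.

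Phosphofructokinase catalyses the committed step, and its subunit genes were all present. Pfkm, the muscle-type subunit gene, had 28.2, 26.1 and 26.2 FPKM, and Pfkp, the platelet-type gene, 16.5, 19.3 and 18.5 FPKM, against 56.7, 55.5 and 55.4 FPKM of Pfkl, the liver-type gene. No values overlapped between the subunits. Pfkl made up 55.4 ± 0.446% of the summed FPKM of the step, Pfkm 26.6 ± 1.05% and Pfkp 17.96 ± 1.49% (SD, n = 3).

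Fructose-2,6-bisphosphate, the strongest activator of phosphofructokinase, is made and removed by the bifunctional PFKFB enzymes. Pfkfb2, known from heart, had 4.99, 5.26 and 5.68 FPKM, and Pfkfb4, known from testis, 5.87, 6.55 and 5.76 FPKM, against 24.9, 21.0 and 22.6 FPKM of Pfkfb3, whose product has the highest ratio of kinase to phosphatase activity. Pfkfb3 was clear of both others and held 64.7 ± 2.94% of the FPKM of the 4 PFKFB genes (SD, n = 3), Pfkfb1 included.

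Of the summed FPKM of their steps, Aldoa held 94.0%, Pgam1 99.5%, Pkm 99.98% and Ldha 82.5%. Aldoc, the brain aldolase gene, had 37.5, 34.9 and 37.7 FPKM, against 583, 579 and 564 FPKM of Aldoa, the widespread form, a ratio of 0.0638 ± 0.00325 (SD, n = 3). The next steps, each with 1 gene among the 33, were all high. Tpi1, the triose phosphate isomerase gene, had 193, 184 and 186 FPKM. Gapdh, whose product forms the first NADH of the pathway, had 535, 572 and 572 FPKM. Pgk1, the first ATP-forming enzyme, had 357, 311 and 324 FPKM, highest in replicate 1 and lowest in replicate 2.

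Pgam2, the muscle phosphoglycerate mutase gene, had 1.91, 2.60 and 2.08 FPKM, against 453, 413 and 416 FPKM of Pgam1, the form of most tissues. None of 10 skeletal and cardiac muscle markers reached 1 FPKM in each replicate, the highest being Acta1 at 0.663 ± 0.167 FPKM. Pklr had 0.0806, 0.0838 and 0.158 FPKM, against 617, 568 and 559 FPKM of Pkm, the pyruvate kinase gene of all other tissues. Liver markers were low as well: 2 of 6 reached 1 FPKM in each replicate (33.3%, against 50.7% of all genes). They were led by Apoa2 at 3.60 ± 1.61 FPKM, and 3 of the 6 were listed at 0 throughout. Pkm gives the M1 and M2 isoforms by exclusive splicing of neighbouring exons, which a value per gene cannot separate. Of the splicing factors known to steer that choice, Hnrnpa1 stood at 298 ± 15.0 FPKM and Hnrnpa2b1 at 207 ± 7.82.

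For enolase the level of a single gene is uncertain. Eno2, the neuronal enolase gene, had 20.7, 19.7 and 20.9 FPKM, and Eno3, the muscle form, 3.94, 4.42 and 4.44 FPKM, against 182, 176 and 177 FPKM of Eno1, the widespread form. Yet the table also lists Eno1b, a near-identical intronless copy of Eno1 named here after its values were seen, at 561, 537 and 531 FPKM. It took 75.5%, 75.3% and 75.0% of the summed FPKM of both genes, a nearly fixed share. Short reads from the coding sequence fit both, and how reads with several matches were divided is not given, so Eno1 and Eno1b cannot be told apart here. Their sum, 722 ± 19.2 FPKM (SD, n = 3), would place enolase above Pkm. Eno3 overlaps Pfn1 in the RefSeq annotation, which had 252, 270.3 and 272 FPKM and was also lowest in replicate 1, and the part of Pfn1 in the Eno3 level was not tested. Aldoart1, an aldolase copy picked with its values in view, stood at 0.772 ± 0.0745 FPKM.

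At the lactate branch the A-type subunit led. Ldhb, whose product predominates in heart, had 91.6, 98.7 and 98.9 FPKM, against 487, 437 and 449 FPKM of Ldha, the subunit gene of muscle and of fast-growing cells. Ldhb was lowest and Ldha highest in replicate 1, so that the ratio of Ldhb to Ldha was 0.188 in replicate 1, and 0.226 and 0.220 in replicates 2 and 3. The testis form Ldhc took 0.0125 ± 0.00346% of the FPKM of the step (SD, n = 3).

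The lactate transporter genes also had opposite orders between replicates. Slc16a3 encodes MCT4, the low-affinity transporter of lactate-exporting cells, and had 63.6, 58.8 and 58.5 FPKM, against 12.9, 16.5 and 16.7 FPKM of Slc16a1, which encodes MCT1, the form found in most cells. The ratio of Slc16a3 to Slc16a1 was 4.94 in replicate 1, and 3.57 and 3.50 in replicates 2 and 3. Csnk1d, which overlaps Slc16a3 in the RefSeq annotation, had 61.1, 59.1 and 60.3 FPKM, and whether counting used the strand is not given, so reads of both genes cannot be told apart where they overlap. Bsg, the chaperone gene that brings MCT1 and MCT4 to the membrane, stood at 258 ± 11.3 FPKM (SD, n = 3).

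Into the mitochondrion, the subunits of pyruvate dehydrogenase E1 were matched in level. Pdhb, the beta subunit gene, had 44.5, 40.98 and 42.9 FPKM, against 45.0, 43.6 and 44.8 FPKM of Pdha1, the X-linked alpha subunit gene. This was the only one of the 17 pairs of related genes whose values overlapped. Most pairs set a gene against the highest of its step, so Pdk2 and Pdk3, which also overlapped, were not among them. The proteins of Pdhb and Pdha1 join in a tetramer in equal numbers. The difference of Pdhb from Pdha1 was -0.05 ± 0.04 on the log2(FPKM + 1) scale (SD, n = 3). The pyruvate carrier genes Mpc2 and Mpc1 stood at 35.1 ± 1.25 and 26.6 ± 0.898 FPKM.

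The kinases that switch this complex off were far lower. Pdk2, the most widespread of them, had 6.11, 6.89 and 7.87 FPKM, Pdk3 had 6.66, 7.40 and 6.74, and Pdk4 had 0.0709, 0.0948 and 0.0595, against 18.1, 15.6 and 16.1 FPKM of Pdk1, a known target of hypoxia-inducible factors. Pdk1 was clear of the other kinases, while Pdk2 and Pdk3 overlapped. The summed FPKM of the 4 kinase genes was 30.5 ± 0.515 (SD, n = 3), against 87.3 ± 2.47 for the E1 pair.

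**Figure D2:**
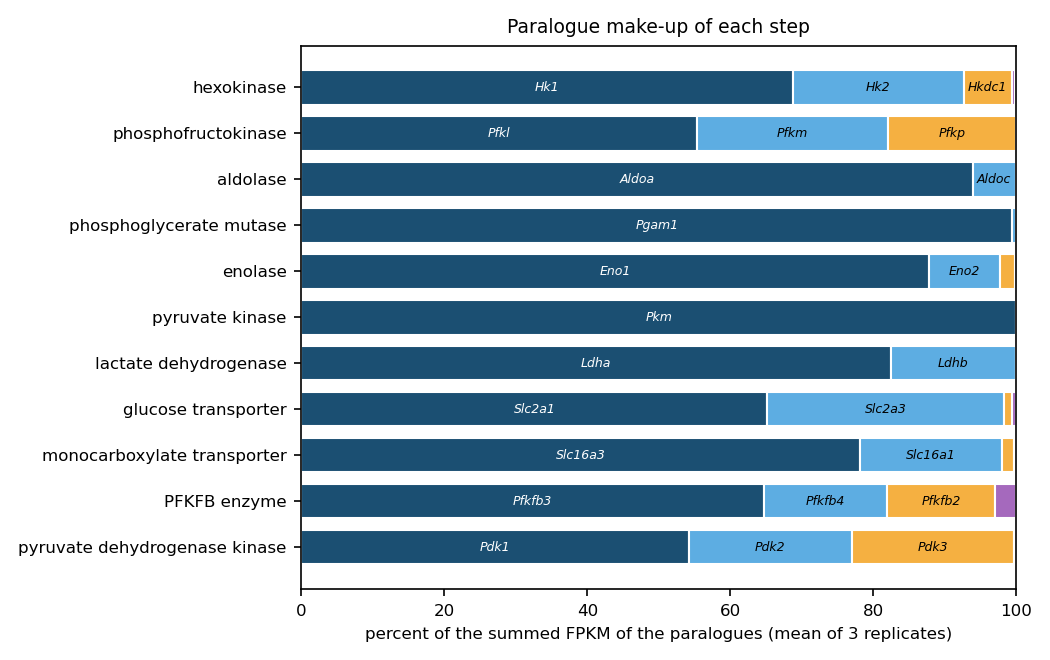
Percent of the summed FPKM that each paralogue holds in 11 steps, as the mean of 3 replicates, with the largest share at the left. Pkm, Pgam1 and Aldoa hold 99.98%, 99.5% and 94.0% of their steps, while phosphofructokinase, PFKFB enzymes and pyruvate dehydrogenase kinases are split between several genes.

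The replicates differed in a patterned way. Of the 31 genes averaging 1 FPKM or more, 18 (58.1%) were highest in replicate 1, against 36.3% of all genes at that level, and 9 (29.0%) were lowest there, against 36.5% of all. By level, 18 of the 25 genes averaging 10 FPKM or more were highest in replicate 1, against 40.4% of all genes at that level, and 4 were lowest there, against 33.7%. Of the 6 genes between 1 and 10 FPKM, 0 were highest in replicate 1, against 32.3% of all genes at that level, and 5 were lowest there, against 39.2%. Replicates 2 and 3 were close, with a median absolute difference of 0.04 on the log2(FPKM + 1) scale over the 31 genes, against 0.06 over 12432 genes of the table. Replicate 1 was farther from both, at 0.11 and 0.10 from replicates 2 and 3, against 0.08 and 0.07 over those genes. This pattern is a comparison of single libraries and carries no test. In bulk RNA, fewer cells of a type and less RNA per cell cannot be told apart.

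A step of at least 0.1 on the log2(FPKM + 1) scale between replicate 1 and the mean of the others, a limit set after the values were seen, left 9 genes on the high side (29.0%, against 12.2% of all genes) and 7 on the low side (22.6%, against 19.0%). On the high side were Pfkfb3 (0.19), Pdk1 (0.18), Pgk1 (0.17), Slc2a3 (0.14), Ldha (0.14), Pkm (0.13), Pgam1 (0.13), Slc16a3 (0.12) and Pfkm (0.11). Neighbouring genes of the pathway were below that step or went the other way, with differences of 0.06 for Tpi1, 0.05 for Eno1, 0.01 for Slc2a1 and -0.10 for Gapdh, which was lowest in replicate 1. On the low side were Slc16a1 (-0.34), Pdk2 (-0.24), Pgam2 (-0.20), Pfkp (-0.19), Eno3 (-0.14), Pfkfb2 (-0.11) and Ldhb (-0.11). The share on the low side was near that of all genes.

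**Figure D3:**
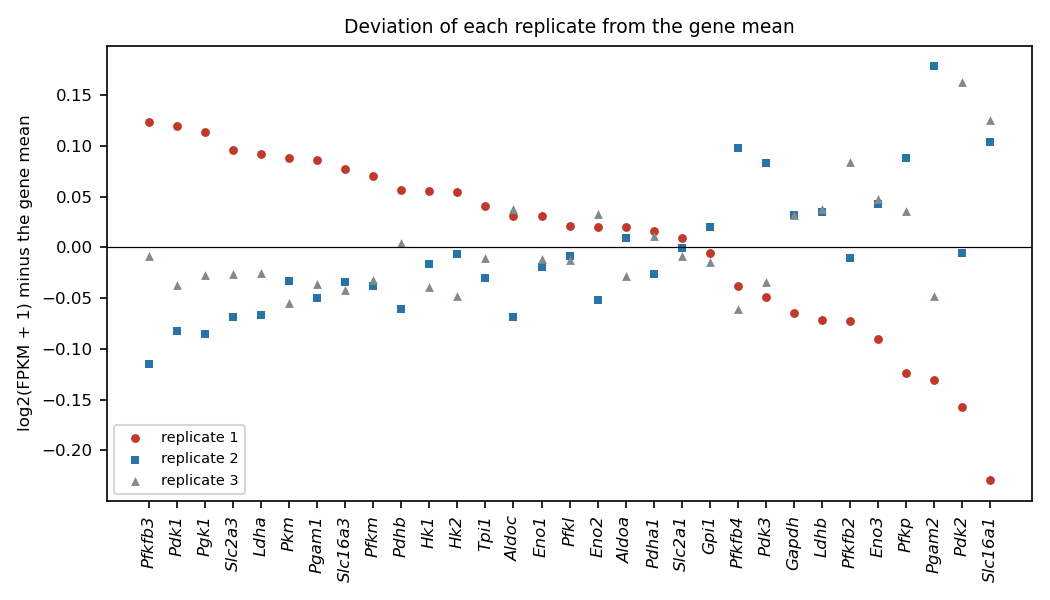
Deviation of each replicate from the gene's own mean on the log2(FPKM + 1) scale, for the 31 genes averaging 1 FPKM or more, sorted by the difference of replicate 1 from the others. Replicate 1 lies above both others at the left, from Pfkfb3 to Tpi1, and below both at the right, from Pdk3 to Slc16a1.

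To show the promoters of genes that moved together or apart between replicates, the 250 bases upstream of the start were taken from RefSeq (build GRCm38.p6), which held 49 such windows for 32 of the 33 genes. Capitals mark the letters ACGTG on either strand (CACGT when read on the printed strand), the core most often given for the hypoxia response element bound by hypoxia-inducible factors. The longer CACGTG, an E-box known for Myc binding, contains it on both strands and counts as 1 place. The first group was highest in replicate 1. Ldha lies downstream of chr7:46845554-46845803 (plus strand, the first of its 2 listed starts), Pgk1 of chrX:106186850-106187099 (plus), Pgam1 of chr19:41911621-41911870 (plus) and Slc16a3 of chr11:120948817-120949066 (plus). The second group was lowest in replicate 1. Ldhb lies downstream of chr6:142507958-142508207 (minus strand) and Slc16a1 of chr3:104638414-104638663 (plus).
Ldha: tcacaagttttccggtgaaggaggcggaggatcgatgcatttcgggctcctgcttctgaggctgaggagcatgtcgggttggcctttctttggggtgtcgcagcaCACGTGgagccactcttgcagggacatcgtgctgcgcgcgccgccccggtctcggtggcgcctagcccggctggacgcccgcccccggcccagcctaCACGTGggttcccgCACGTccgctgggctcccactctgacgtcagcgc
Pgk1: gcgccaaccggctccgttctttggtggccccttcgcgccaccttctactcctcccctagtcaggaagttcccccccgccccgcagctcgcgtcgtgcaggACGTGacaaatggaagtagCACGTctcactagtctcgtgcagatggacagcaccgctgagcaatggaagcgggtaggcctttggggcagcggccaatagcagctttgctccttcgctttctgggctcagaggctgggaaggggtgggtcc
Pgam1: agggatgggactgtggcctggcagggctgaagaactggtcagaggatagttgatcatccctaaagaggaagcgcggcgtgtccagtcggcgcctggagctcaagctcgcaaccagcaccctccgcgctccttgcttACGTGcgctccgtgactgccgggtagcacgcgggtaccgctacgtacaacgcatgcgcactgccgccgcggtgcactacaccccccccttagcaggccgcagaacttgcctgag
Slc16a3: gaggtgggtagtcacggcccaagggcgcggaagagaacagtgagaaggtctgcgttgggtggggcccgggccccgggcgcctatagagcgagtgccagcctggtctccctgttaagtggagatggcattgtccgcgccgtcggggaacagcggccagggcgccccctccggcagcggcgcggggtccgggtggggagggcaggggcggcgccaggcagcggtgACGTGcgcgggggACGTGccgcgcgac
Ldhb: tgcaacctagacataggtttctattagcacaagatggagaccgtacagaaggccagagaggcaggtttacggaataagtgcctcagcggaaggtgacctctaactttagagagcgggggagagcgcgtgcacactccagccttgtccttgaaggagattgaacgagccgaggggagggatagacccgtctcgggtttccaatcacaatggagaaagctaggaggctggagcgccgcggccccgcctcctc
Slc16a1: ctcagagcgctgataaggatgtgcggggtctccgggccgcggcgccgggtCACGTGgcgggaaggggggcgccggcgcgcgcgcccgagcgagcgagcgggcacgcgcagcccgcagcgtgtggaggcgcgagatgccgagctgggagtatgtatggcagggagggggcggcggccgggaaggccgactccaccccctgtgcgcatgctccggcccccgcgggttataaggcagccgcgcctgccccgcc

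The printed Ldha window held the motif at 3 places, beginning 145, 48 and 34 bases before the start, the first 2 of them as CACGTG. The window of the other listed Ldha start (chr7:46846832-46847081) did not hold it. At least 3 places were found in 0.256% of 32851 windows of all genes and in 0.414% of 11831 windows of genes expressed here. Pgk1 held 2 places, beginning 150 and 131 bases upstream, and Slc16a3 held 2, beginning 27 and 14 bases upstream. At least 2 places were found in 1.95% of all windows and 3.07% of those of expressed genes. Pgam1 held 1 place, Slc16a1 held 1 as CACGTG, and these letters were not in the window of Ldhb. At least 1 place was found in 19 of the 49 windows of these genes (38.8%), against 16.6% of all windows and 21.8% of windows of expressed genes. Windows of the same gene can share sequence. By gene, 7 of the 8 high-side genes with a window, 3 of the 7 low-side genes and 5 of the 17 others held it, against 18.5% of 27025 genes. Here a gene counts when any of its windows holds the motif, and the 18.5% covers genes whether expressed or not. Pdk1 was the high-side gene without it in any window. These groups were formed from the values, so the counts are a description, and a match of letters is not a bound site.

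Among neighbouring pathways, the pentose phosphate genes stood on the other side in replicate 1. This pathway branches from glucose-6-phosphate and supplies NADPH and ribose, and 8 of its 10 genes were expressed, led by Taldo1 (89.0 ± 0.998 FPKM; SD, n = 3) and Tkt (64.6 ± 1.03), while Tktl1 (0.195 ± 0.0806) and Tktl2 (0.266 ± 0.0934) were not. Of these 8, 7 were lowest in replicate 1, against 36.5% of all genes, and Tkt was the exception (65.8, 64.0 and 64.0 FPKM). The median difference of the 8 from the other replicates was -0.08 on the log2(FPKM + 1) scale. By at least 0.1, 4 of the 8 were lowest (50.0%, against 19.0% of all genes). Taldo1 was lowest only narrowly, with 88.39, 90.13 and 88.42 FPKM. All 17 genes of the tricarboxylic acid cycle were expressed, led by Mdh2 (173 ± 1.01), with a median difference of 0.01. In replicate 1, 8 of them were highest (47.1%, against 36.3% of all genes) and 6 lowest (35.3%, against 36.5%).

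Of 10 genes of the pyruvate dehydrogenase complex, pyruvate carriers and related enzymes, 9 were expressed, with Ldhd, the D-lactate dehydrogenase gene, listed at 0, 0 and 0.0578 FPKM. In replicate 1, 5 of these 9 were highest (55.6%, against 36.3% of all genes) and 2 lowest (22.2%, against 36.5%). Those shares were near the 58.1% and 29.0% of the glycolysis, lactate and pyruvate genes. Of 7 gluconeogenesis genes 3 were expressed (42.9%, against 50.7% of all genes), led by the widespread G6pc3 (17.99 ± 0.831) and Slc37a4 (12.4 ± 0.420). Both Fbp1 and G6pc of liver and kidney were listed at 0 in every replicate. Of 16 tissue-restricted paralogues 3 were expressed, among them Hkdc1 and Slc2a4 given above, and the testis gene Pgk2 was listed at 0 throughout.

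Genes of the oxygen-sensing pathway were nearly all expressed, 9 of 10, led by the prolyl hydroxylase genes Egln1 (50.3 ± 1.09 FPKM; SD, n = 3) and Egln2 (32.2 ± 0.573), with Hif3a at 0.957, 1.10 and 1.24. Hif1a, named after its values were seen, had 23.5, 22.8 and 24.1 FPKM, with no replicate standing apart. Epas1, also named afterwards and encoding HIF-2alpha, had 19.2, 32.5 and 31.7 FPKM, lowest in replicate 1 by 0.71 (log2). Of 15 known hypoxia targets outside glycolysis 14 were expressed. In replicate 1, 8 of these 14 genes were highest (57.1%, against 36.3% of all genes) and 5 lowest (35.7%, against 36.5%). By at least 0.1 (log2), 3 of the 14 were highest (21.4%, against 12.2% of all genes) and 3 lowest (21.4%, against 19.0%). Ddit4 had 187, 166 and 159 FPKM and Bnip3 102, 92.8 and 94.0, both highest in replicate 1, while the tumour hypoxia marker Car9 was at most 0.0666 FPKM.

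Of 13 genes around Myc and glucose sensing 12 were expressed, led by Max (37.8 ± 1.63) and Mycl (30.4 ± 1.59), and Mlxipl, which encodes the glucose-responsive factor ChREBP, was not (0.212 ± 0.143). All 4 splicing factors were expressed, and so were both transporter chaperones, Bsg and Emb. Each chaperone was lowest in replicate 1: Bsg had 245, 266 and 263 FPKM and Emb 8.01, 9.12 and 9.76.

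Some lists of cell type markers also stood apart in replicate 1. Of 20 extraembryonic endoderm markers 18 were lowest in replicate 1, against 36.5% of all genes. All 18 were so by at least 0.1 (log2), against 19.0% of all genes. The summed level of the 20 markers was 594, 804 and 812 FPKM in replicates 1, 2 and 3, and none was at 0. The highest were Sparc (228, 287 and 293 FPKM), Col4a1 (94.2, 140 and 141) and Col4a2 (67.9, 103 and 104). Of 15 neuron markers 13 were highest in replicate 1 (86.7%, against 40.4% of all genes averaging 10 FPKM or more). Only 2 were so by at least 0.1 (log2) (13.3%, against 12.2% of all genes). The neuron markers summed to 3517, 3374 and 3344 FPKM, led by Tubb3 (655, 643 and 638), Gap43 (634, 592 and 596) and Stmn2 (437, 406 and 416). Of 12 neural progenitor markers 6 were highest in replicate 1 (50.0%, against 40.4% of all genes averaging 10 FPKM or more). Another 2 were lowest there (16.7%, against 33.7%). The progenitor markers summed to 1551, 1526 and 1506 FPKM, led by Fabp7, Vim and Sox2 at 910 ± 8.47, 262 ± 4.85 and 79.5 ± 4.57. None of 6 erythroid markers reached 1 FPKM in each replicate, and 2 were listed at 0 throughout. Of the 5 expressed pluripotency markers 3 were lowest in replicate 1 (60.0%, against 36.5% of all genes). The list was led by Dppa5a (15.6 ± 2.48), Klf4 (10.4 ± 2.35) and Esrrb (6.17 ± 0.222). The part of these cell type differences, and of the greater depth of replicate 1, in the pattern of the glycolytic genes was not tested.

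**Figure D4:**
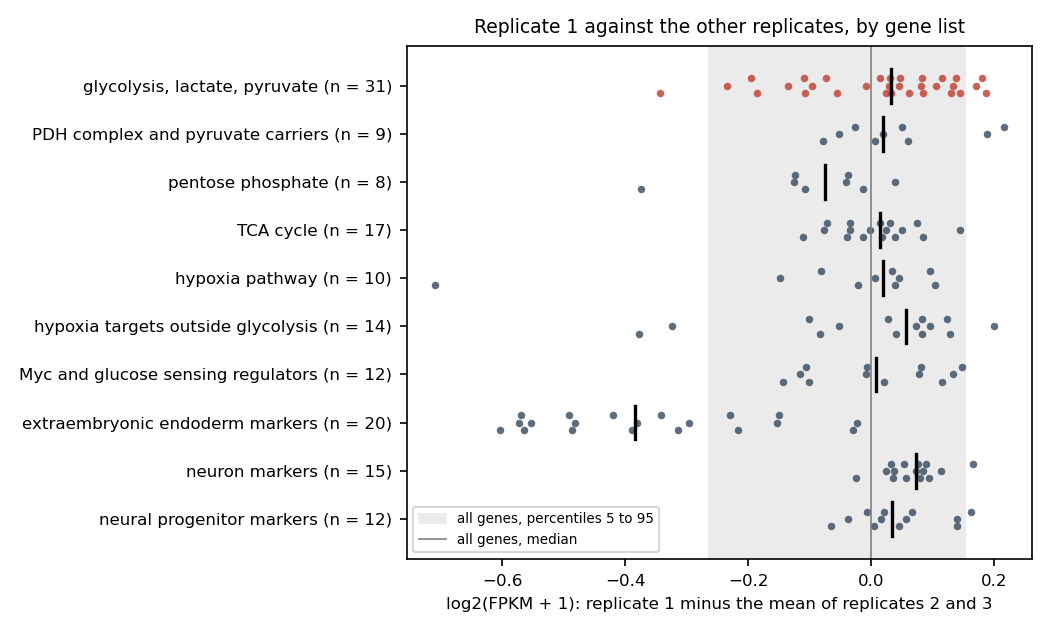
Difference of replicate 1 from the mean of replicates 2 and 3 on the log2(FPKM + 1) scale, 1 point per gene averaging 1 FPKM or more, with list medians as black bars and in grey the range, from -0.26 to 0.15, that holds most of 12432 genes of the table. The median of the 31 glycolysis, lactate and pyruvate genes lies at 0.03, those of pentose phosphate genes and extraembryonic endoderm markers lie at -0.08 and -0.39, and that of neuron markers lies at 0.07.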

How the data were processed

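RNA-seq of polyadenylated RNA was available for 3 samples; the 3 ATAC-seq samples were not used, because no annotation of their build was at hand to place regions at genes. The submitters' processing notes name Bowtie, Cufflinks and mm9 (versions, settings and strand use: not given in the sources used here). No unit is stated in the deposited table; its values were taken as FPKM that the authors made with Cufflinks, from that name and from their form. An exact 0 can be a failed estimate, so such genes are only said to be listed at 0.

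Groups and replicate numbers came from the sample titles. With 1 condition, no test between groups was made: levels are given per replicate or as mean and SD (n = 3), and lists as counts beside the same counts over all genes. Thresholds were 1 FPKM in every replicate for expression and a mean of at least 1 FPKM for comparisons between replicates, which used log2(FPKM + 1). Relative depth came from the most common ratio of values between 0.001 and 0.1 FPKM (tolerance 0.004 on the natural log scale), taken as that of equal read numbers; the procedure was tested on simulated data. Counting intervals are not given, as absolute depth is unknown. The genes and lists were chosen with earlier results of these data known, among them the low level of endoderm genes in replicate 1. Named genes are the 33 members, from each pathway list the 2 highest expressed and up to 2 lowest genes not expressed, and the 3 highest of each marker list; 1 gene that this rule names is not reported here, and others are said to be chosen after their values were seen. Of the symbols, 1 (Tigar) was matched through a RefSeq synonym. In the RefSeq annotation 9 of the 33 genes overlap another gene of the table, and their levels are uncertain to that extent: Hk1, Pfkm, Pfkp, Tpi1, Eno3, Pklr, Pdha1, Slc16a3 and Pfkfb2. Python 3.11.15, pandas 2.3.3 and numpy 2.4.6 were used.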

Additional observations from a re-analysis of the deposited data

How the results depend on the processing

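Thresholds of 0.5 and 5 FPKM, a pseudocount of 0.1, other filters, upper quartile scaling and leaving out each replicate in turn were tried. The number of expressed genes stayed between 28 and 31 of 33, and 9 genes averaged 100 FPKM or more under scaling and without any replicate. Among genes averaging 10 FPKM or more, 4 of 25 were lowest in replicate 1, against 33.7% of all genes at that level. Of the 6 genes between 1 and 10 FPKM, which that filter leaves out, 5 were lowest there. With the same filter, 9 of 10 endoderm markers were lowest in replicate 1, against the same 33.7% of all genes. A step of at least 0.1 (log2), chosen after seeing the data, left 9 genes highest in replicate 1. Upper quartile scaling moved the median of all genes by 0.02 (log2) or less, and 19 genes were then highest in replicate 1, against 42.0% of all genes. Without replicate 2 or replicate 3, 20 genes were higher in replicate 1, against 50.4% and 49.3% of all genes. The median SD between replicates was 0.07 (log2) over 31 genes; it ranged from 0.0266 without replicate 1 to 0.0788 without replicate 3. The 33 genes held 0.823% of summed FPKM, and 1.28% without small RNA genes in the total, an alternative chosen after seeing the data. Of 68 recomputed differences between related genes, none changed sign and 6 moved beyond their SD, all under the pseudocount of 0.1, as that of Pklr from Pkm, which was -9.04 and became -11.47. Replicate 1 could not be left out of its own comparison. No paired analysis was possible because the samples of both assays share a number but only 1 condition exists, so nothing is compared across pairs. Unknown read depth limits what can be said of genes below 1 FPKM.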

Other observations

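Values of some further genes of the lists follow, each named after its values were seen. P4ha2, a collagen prolyl hydroxylase gene, had 25.0, 32.5 and 32.97 FPKM in replicates 1, 2 and 3, and Ndrg1, another hypoxia target, had 11.4, 14.4 and 14.5. Both were lowest in replicate 1. Vegfa had 63.1, 64.7 and 70.9 FPKM, highest in replicate 3. H6pd, which starts the pentose phosphate reactions inside the endoplasmic reticulum, had 1.61, 2.57 and 2.20 FPKM. Tigar, listed in the table under its older symbol and encoding a fructose-2,6-bisphosphatase, had 8.26, 6.93 and 7.99 FPKM, lowest in replicate 2.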
